A study of Homo sapiens with 18 samples.

Results

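The integrated stress response (ISR) was followed here through 10 of its genes: ATF4, DDIT3 (CHOP), TRIB3, ASNS, CHAC1, SESN2, DDIT4 (REDD1), PPP1R15A (GADD34), CEBPB and NUPR1. They were chosen by name, as the rows that carry these symbols in the deposited expression tables of both cell lines of the study, and all 10 were present, among 15358 genes listed for MCF10A cells and 15257 listed for hTERT RPE-1 cells. In the ISR, one of a small set of kinases phosphorylates the initiation factor eIF2alpha, which lowers translation in general while the mRNA of the transcription factor ATF4 is translated better. ATF4 then acts on genes for amino acid synthesis and transport, tRNA charging and redox balance, and on factors such as DDIT3 that take the response further, and PPP1R15A and TRIB3 act back on the pathway. The response is known both for nutrient, endoplasmic reticulum and viral stress and for keeping amino acid supply in step with demand in growing cells.

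The study tested microRNA mimics that lower ribosome production. PolyA+ RNA of MCF10A cells, a nontumorigenic human breast epithelial line, and of hTERT RPE-1 cells, a human retinal pigment epithelial line made immortal with telomerase, was sequenced after transfection with siNT, a non-targeting siRNA that served as the control, or with a mimic of hsa-miR-28-5p or of hsa-miR-708-5p. Every group, controls included, was transfected at 30 nM and collected after 72 h, with 3 biological replicates, numbered 7 to 9 in MCF10A and 1 to 3 in hTERT RPE-1 cells. The mimics are synthetic RNAs given in excess, each line is a single established line, and the lines were tabulated apart. Both microRNAs belong to the MIR-28 family and share their seed, the stretch at the 5′ end that pairs with targets.

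The mimic of hsa-miR-708-5p has the mature sequence below, given by RefSeq (GRCh38.p14, chr11:79402077-79402099, minus strand), with the seed, bases 2 to 8, in capitals. It is shown because a 3′ UTR site of either mimic is searched for by the complement of these letters; hsa-miR-28-5p is named only.
hsa-miR-708-5p: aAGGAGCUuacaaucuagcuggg

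Values are reads estimated for each gene and divided by the library's size factor, called scaled reads here. The steps between the lowest values put the depth at 19.4 to 31.7 M estimated reads a library in MCF10A and at 23.8 to 40.3 M in hTERT RPE-1 cells, so that 3 reads, the floor used here, equal 2.49 to 4.03 scaled reads in MCF10A and 2.36 to 4.41 in hTERT RPE-1 cells. These floors cover counting error only. RPS28, the ribosomal protein gene known as a target of both mimics, was at 3589, 3959.6 and 4062 scaled reads with siNT, 697, 499.8 and 503 with miR-28 and 785, 554 and 532 with miR-708 in MCF10A cells, and the log2 fold change was -2.79 ± 0.17 (SE, adjusted p = 1.48e-05) with miR-28. In hTERT RPE-1 cells its change was -4.47 ± 0.18 (SE, adjusted p = 1.65e-07) with miR-28 and -4.40 ± 0.18 (SE, adjusted p = 6.25e-08) with miR-708, so each mimic library lies on the side its label gives. All 6 markers of basal breast epithelium and all 4 general epithelial markers were at 100 or more scaled reads in every MCF10A library, but some were lower with the mimics. The basal keratin KRT14 was at 32508 to 42198 there with siNT, 10013 to 12599 with miR-28 and 5602 to 9341 with miR-708, and TP63, a basal transcription factor, at 2950.4 to 3554, 1286 to 2059 and 1057 to 1816. The epithelial keratin KRT8 was, for hTERT RPE-1 cells, at 14031 to 15598 with siNT, 4533 to 5129 with miR-28 and 2033 to 2125 with miR-708. KRT18 was also lower with both mimics there, and the other epithelial markers, CDH1 and EPCAM, were not listed for that line. LAMB3, of the basal breast list, went the other way there. Its hTERT RPE-1 values were higher in every mimic library than in any siNT library, and highest with miR-708. Of 8 markers of retinal pigment epithelium, 6 were listed for hTERT RPE-1 cells and 3 reached 100 in every library (BEST1, MITF and OTX2), a count that was also 3 in MCF10A cells, while RPE65 and TYR were not listed and LRAT and RLBP1 were at 1.47 to 15.3. The fibroblast markers COL1A1 and PDGFRB were above 100 in every hTERT RPE-1 library and lower with the mimics, PDGFRB at 11809 to 13806 with siNT, 5923 to 7328 with miR-28 and 2718 to 3184 with miR-708, and the part of these marker changes in the results was not tested. In bulk libraries, fewer cells that express a gene and less RNA per cell cannot be told apart.

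MCF10A siNT replicate 8 stands apart within its group for several lists of the pathway. It lies below both other siNT libraries for 8 of the 10 members, for all 13 genes of tRNA charging and export listed as ATF4 targets, for 15 of 19 other ATF4 targets, for 11 of 13 amino acid synthesis genes and for 10 of 11 amino acid transporters, against 33.6% of all genes tested. For the other lists it lies below both for 1 of 8 other tRNA synthetases, 3 of 14 endoplasmic reticulum chaperones, 5 of 11 other bZIP factors, 7 of 15 eIF2 genes and regulators and 2 of 4 eIF2alpha kinases. ASNS was at 1120.0 scaled reads there against 4749.7 and 5293, and CHAC1 at 15.0 against 163 and 159.8. Besides ASNS, 17 genes of at least 100 mean scaled reads were also 2-fold or more below both other siNT libraries in it, among them PHGDH, PSAT1, SLC7A11, PCK2 and STC2, named after their values were seen. These 18 are among 11259 genes of that level, and the counts for siNT replicates 7 and 9 by the same rule were 46 and 21. Counted in either direction, genes 2-fold apart from both other libraries of the group were 0.258% in siNT replicate 8. The largest shares in MCF10A cells were 1.97% in miR-28 replicate 7, DDIT3 among them, and 1.56% in miR-708 replicate 7. The cause of the low values in siNT replicate 8 was not tested. Values without that library are given beside ASNS, CHAC1, PHGDH and SLC7A11, and for the difference of NUPR1 between the lines.

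ATF4, TRIB3 and ASNS fell with both mimics in MCF10A cells and rose with both in hTERT RPE-1 cells. A member was called when its limma p, adjusted by the Benjamini-Hochberg method over all genes tested in the line, was below 0.05. With miR-28 in MCF10A cells 5 members fell (ATF4, TRIB3, ASNS, CHAC1 and DDIT4) and 0 rose by limma, where 12% of all genes fell, 10.7% rose and 22.7% were called in all. At an unadjusted p below 0.05 the members numbered 6, PPP1R15A being the 1 that was higher. With miR-708 the same 5 genes fell and 2 members, DDIT3 and PPP1R15A, rose, where 17.3% of all genes fell, 15.5% rose and 32.8% were called. In hTERT RPE-1 cells 8 members rose with miR-28, all but CEBPB and NUPR1, and 7 rose with miR-708, all but CHAC1, DDIT4 and NUPR1. Of all genes there 23.3% rose and 23.5% fell with miR-28 (46.8% called), and 30.9% rose and 31.2% fell with miR-708 (62.1% called). The median log2 fold change of the members was -0.32 with miR-28 and -0.36 with miR-708 in MCF10A cells and 0.58 and 0.64 in hTERT RPE-1 cells, where the median of all genes was at most 0.01. Both mimics were compared with the same siNT libraries, so their results in a line are not independent. In MCF10A cells CHAC1 passed the filter on low values (at least 10 scaled reads in 3 libraries) only through the siNT group, so it had to differ there, and the other 9 members hold 4 lower calls with either mimic. The scaling matters for the balance of calls: with values scaled by library size the share of higher genes among all called went from 47.1% to 66.2% with miR-28 and from 47.3% to 67.6% with miR-708 in MCF10A cells, and from 49.9% to 59.4% and from 49.7% to 71.9% in hTERT RPE-1 cells. The median of all genes then moved by 0.12, 0.14, 0.09 and 0.32 in the same order, and none of the calls of these members against siNT was lost by that scaling. PPP1R15A with miR-28 in MCF10A cells was called higher under it.

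**Figure D1:**
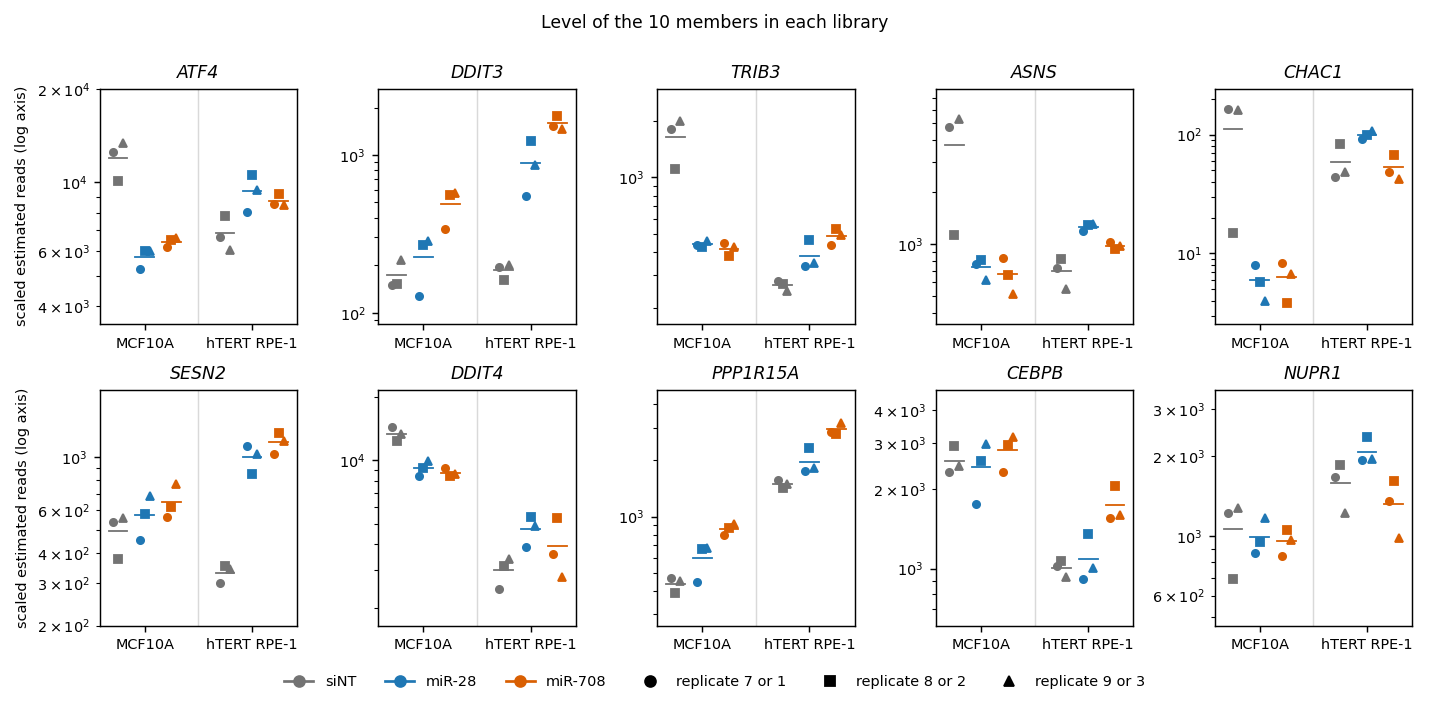
Scaled estimated reads (log axis) of each of the 10 members in every library, with siNT in grey, miR-28 in blue and miR-708 in orange, MCF10A on the left and hTERT RPE-1 on the right of each panel. Points are single libraries, their shape gives the replicate number, and lines are group means. TRIB3, ASNS and CHAC1 are higher in all MCF10A siNT libraries than in any MCF10A mimic library, whereas DDIT3 and SESN2 are higher in all hTERT RPE-1 mimic libraries than in the siNT libraries.

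ATF4 is the transcription factor at the centre of the ISR (GRCh38, chr22:39519695-39522683, plus strand, 3 exons in the canonical transcript). In MCF10A cells it was at 12543, 10116 and 13392 scaled reads with siNT, at 5244, 6008 and 6029 with miR-28 and at 6192, 6518 and 6631 with miR-708. All mimic libraries lay below all siNT libraries. The log2 fold change was -1.05 ± 0.12 (SE, adjusted p = 0.000322) with miR-28 and -0.89 ± 0.12 (SE, adjusted p = 0.000271) with miR-708, a mean 2.09-fold and 1.86-fold lower. The hTERT RPE-1 values were 6681, 7819 and 6075 with siNT, 8059.6, 10609.5 and 9438 with miR-28 and 8496, 9181 and 8464 with miR-708. The mimic libraries lay above the siNT libraries, by less than in the other line in size. The change was 0.45 ± 0.12 (SE, adjusted p = 0.0113) with miR-28 and 0.35 ± 0.12 (SE, adjusted p = 0.0259) with miR-708. The call with miR-708 was lost when siNT replicate 1 or 3 or miR-708 replicate 1 or 2 was left out, with adjusted p up to 0.095. ATF4 has processed pseudogenes, between which estimated reads may be split.

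DDIT3 encodes CHOP, a partner and target of ATF4 known for its part in cell death under lasting stress. It rose most of the members in hTERT RPE-1 cells, from 194, 162 and 199.6 scaled reads with siNT to 549.7, 1234 and 870.2 with miR-28 and 1534, 1759 and 1461 with miR-708. The 3 groups did not overlap. The log2 fold change was 2.18 ± 0.23 (SE, adjusted p = 4.85e-05) with miR-28 and 3.09 ± 0.23 (SE, adjusted p = 2.07e-06) with miR-708, mean levels 4.77 and 8.55 times that of siNT. In MCF10A cells DDIT3 was at 151, 152 and 215 with siNT, 127, 267 and 285 with miR-28 and 337, 556 and 571 with miR-708. Here the miR-28 and siNT libraries overlapped, and miR-28 replicate 7 was the lowest of the line. The change was 0.32 ± 0.31 (SE, adjusted p = 0.476) with miR-28, which missed the threshold (95% interval -0.35 to 0.995), and 1.47 ± 0.31 (SE, adjusted p = 0.00405) with miR-708. With miR-708 DDIT3 thus rose in the line in which ATF4, TRIB3 and ASNS fell. Without miR-28 replicate 7 its MCF10A change with miR-28 was 0.69, and no single library left out brought the adjusted p below 0.0678.

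CEBPB, a bZIP factor that pairs with ATF4, was called in 1 of the 4 comparisons with siNT. With hTERT RPE-1 cells it was at 1025, 1072 and 926 scaled reads with siNT and at 1556, 2068 and 1605 with miR-708, groups that do not overlap, and rose by 0.78 ± 0.15 (SE, adjusted p = 0.00127). With miR-28 it was at 910.3, 1353 and 1005, a change of 0.094 ± 0.15 (SE, adjusted p = 0.644). In MCF10A cells its log2 fold changes were -0.10 and 0.13, with overlapping groups. NUPR1, a small stress-induced chromatin protein, was not called against siNT in either line, with log2 fold changes of -0.056 and -0.11 in MCF10A and of 0.41 and -0.27 in hTERT RPE-1 cells for miR-28 and miR-708. Its values ran from 694 to 1278 in the 9 MCF10A libraries and from 987 to 2356 in the 9 hTERT RPE-1 libraries. In the latter line NUPR1 was at 1674, 1856 and 1228 with siNT and at 1938, 2356 and 1950 with miR-28, groups that do not overlap. With the replicate number as a block that change with miR-28 was called.

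PPP1R15A encodes GADD34, which brings a phosphatase to eIF2alpha and so ends the response. It rose with miR-708 by a like amount in both lines. In MCF10A cells it went from 469, 390.0 and 451 scaled reads with siNT to 798, 871 and 911 with miR-708, and in hTERT RPE-1 cells from 1575, 1421 and 1495 to 2849, 2778 and 3167. The groups did not overlap in either line, and the log2 fold changes were 0.98 ± 0.16 (SE, adjusted p = 0.00112) and 0.97 ± 0.11 (SE, adjusted p = 3.1e-05). With miR-28 the MCF10A values were 445, 669 and 679, and those of hTERT RPE-1 cells 1764, 2319.7 and 1818. That is a change of 0.43 ± 0.16 (SE, adjusted p = 0.0773) in MCF10A cells, where the adjusted p was 0.0424 with the replicate number as a block, and of 0.38 ± 0.11 (SE, adjusted p = 0.0158) in hTERT RPE-1 cells, which was lost without siNT replicate 2 (adjusted p = 0.0583). The MCF10A change with miR-28 was also called under both other scalings and without miR-28 replicate 7 (0.63, adjusted p = 0.00661).

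TRIB3, a pseudokinase induced by ATF4 and DDIT3 that restrains ATF4, went down in one line and up in the other. It was at 1821, 1109.9 and 1995 scaled reads in MCF10A siNT libraries, at 433, 425 and 456 with miR-28 and at 443, 378.1 and 427 with miR-708. The lowest siNT library was more than 2-fold above every mimic library. The log2 fold change was -1.86 ± 0.19 (SE, adjusted p = 0.000241) and -1.94 ± 0.19 (SE, adjusted p = 5.01e-05). Its hTERT RPE-1 levels were 281, 269 and 247 with siNT, 337, 462 and 347 with miR-28 and 437, 533 and 493 with miR-708. All mimic libraries lay above the siNT libraries, and TRIB3 rose by 0.51 ± 0.14 (SE, adjusted p = 0.013) and 0.87 ± 0.14 (SE, adjusted p = 0.000347).

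ASNS encodes asparagine synthetase, a long-known ATF4 target. In MCF10A cells it was at 4749.7, 1120.0 and 5293 scaled reads with siNT, 764, 811 and 621 with miR-28 and 831, 659.9 and 515 with miR-708. Every mimic library lay below siNT replicate 8, the low control. The log2 fold change was -2.06 ± 0.45 (SE, adjusted p = 0.00893) with miR-28 and -2.21 ± 0.45 (SE, adjusted p = 0.00373) with miR-708, and was -2.78 (adjusted p = 6.04e-05) and -2.93 (adjusted p = 1.26e-05) without that library. The hTERT RPE-1 levels of ASNS were 729, 818 and 545 with siNT, 1183, 1279 and 1308 with miR-28 and 1029, 932 and 967 with miR-708. It rose with both, by 0.87 ± 0.13 (SE, adjusted p = 0.000502) and 0.50 ± 0.13 (SE, adjusted p = 0.00763).

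CHAC1 breaks down glutathione and is among the most responsive ATF4 targets. It was at 163, 15 and 159.8 scaled reads in MCF10A siNT libraries, at 8.04, 5.8 and 3.94 with miR-28 and at 8.33, 3.83 and 6.68 with miR-708, close to the floor of the depth. The log2 fold change was -3.48 ± 0.78 (SE, adjusted p = 0.00986) and -3.42 ± 0.78 (SE, adjusted p = 0.00669), a value that depends on the pseudocount of 1. CHAC1 passed the filter there only through the siNT group and so had to differ, and these adjusted p values are no support for its fall. With siNT replicate 8 left out and no filter on low values its change was -4.59 (adjusted p = 0.000608) and -4.53 (adjusted p = 0.000269). That setting was added after seeing the data, and the library it leaves out is the control nearest the mimic values. CHAC1 in hTERT RPE-1 cells was at 44, 84.1 and 48.4 with siNT, 91.6, 98.4 and 108 with miR-28 and 48.6, 67.5 and 42.5 with miR-708. It rose with miR-28 (0.80 ± 0.27 SE, adjusted p = 0.0311), a call lost without siNT replicate 1 or 3 or miR-28 replicate 2 or 3 (adjusted p up to 0.115), and was at -0.12 ± 0.27 (SE, adjusted p = 0.723) with miR-708.

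SESN2 (sestrin 2) and DDIT4 (REDD1) both restrain the growth kinase mTORC1. SESN2 was at 299.6, 352 and 343.4 scaled reads with siNT in hTERT RPE-1 cells, at 1106, 852 and 1027 with miR-28 and at 1033, 1259 and 1163 with miR-708. Each mimic library was more than 2-fold above each siNT library, and SESN2 rose by 1.58 ± 0.12 (SE, adjusted p = 6.29e-06) and 1.79 ± 0.12 (SE, adjusted p = 1.1e-06). In MCF10A cells it was at 539, 378.2 and 561 with siNT, at 453, 582 and 687 with miR-28, which overlap, and at 563, 620.2 and 772 with miR-708, all just above siNT, with changes of 0.22 ± 0.19 (SE, adjusted p = 0.435) and 0.41 ± 0.19 (SE, adjusted p = 0.124) that missed the threshold. With the replicate number as a block the latter had an adjusted p of 0.0432.

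DDIT4 fell in all 6 MCF10A mimic libraries, from 14350.3, 12315 and 13404 scaled reads with siNT to 8468, 9242 and 9938 with miR-28 and 9250.5, 8419.5 and 8571 with miR-708. The log2 fold change was -0.54 ± 0.10 (SE, adjusted p = 0.00468) and -0.61 ± 0.10 (SE, adjusted p = 0.00121). Its hTERT RPE-1 levels were 2460.5, 3148 and 3413 with siNT, 3859, 5380.4 and 4879 with miR-28 and 3589, 5345 and 2781 with miR-708, the last overlapping the siNT values. It rose with miR-28 (0.65 ± 0.22 SE, adjusted p = 0.0325), a call lost by limma without the trend and without siNT replicate 1 or 2 or miR-28 replicate 2 or 3 (adjusted p up to 0.122), and was at 0.34 ± 0.22 (SE, adjusted p = 0.202) with miR-708, which was called without miR-708 replicate 3 (0.56, adjusted p = 0.0419).

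**Figure D2:**
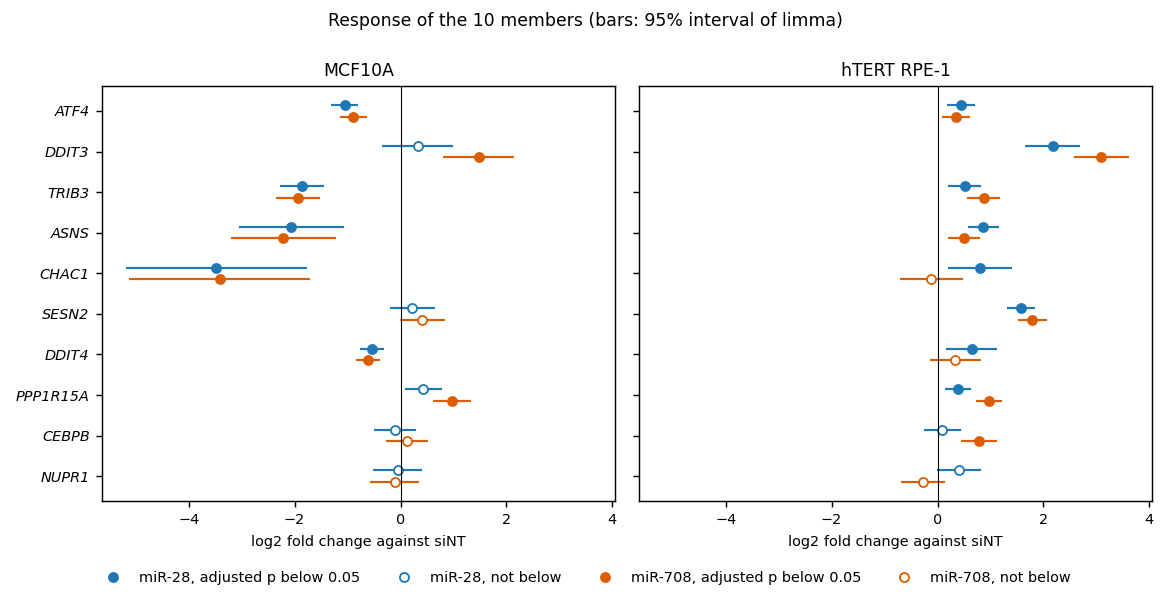
Log2 fold change against siNT of each member (horizontal axis) in MCF10A (left) and hTERT RPE-1 cells (right), with miR-28 in blue and miR-708 in orange; bars are 95% intervals of limma, n = 3 libraries a group, and filled points have an adjusted p below 0.05. ATF4, TRIB3 and ASNS lie left of 0 in MCF10A and right of 0 in hTERT RPE-1 cells with both mimics.

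Whether a member's groups overlapped was also counted without a model. Members whose mimic and siNT libraries did not overlap numbered 5 with miR-28 and 8 with miR-708 in MCF10A cells, where 41.8% and 46.6% of all genes did not overlap. They numbered 9 and 7 in hTERT RPE-1 cells, against 54.4% and 69.2% of all genes. Both MCF10A counts include CHAC1, which passed the filter there only through the siNT group, so its groups could not overlap. Between the mimics 3 members did not overlap in MCF10A cells (ATF4, DDIT3 and PPP1R15A, all higher with miR-708), where 20% of all genes did not, and 6 in hTERT RPE-1 cells, where 38.7% did not. For a single gene, 3 libraries against 3 allow an exact two-sided permutation p no lower than 0.1.

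The difference in response between the lines was tested for each member, as the log2 fold change in hTERT RPE-1 minus that in MCF10A cells. It passed the threshold for 7 members with miR-28 and for 8 with miR-708, each time higher in hTERT RPE-1 cells. These counts include CHAC1, which passed the filter in MCF10A cells only through the siNT group, and are 6 and 7 without it. Of all 13339 genes tested in both lines, 23.4% differed with miR-28 and 39.8% with miR-708, and 12.1% and 20.2% were higher in hTERT RPE-1 cells. For ATF4 the difference was 1.50 ± 0.17 (SE, adjusted p = 3.26e-06) with miR-28 and 1.24 ± 0.17 (SE, adjusted p = 7.52e-06) with miR-708. For TRIB3 it was 2.37 ± 0.23 (SE, adjusted p = 1.07e-06) and 2.81 ± 0.23 (SE, adjusted p = 2.72e-08). ASNS differed by 2.93 ± 0.47 (SE, adjusted p = 0.000868) and 2.71 ± 0.47 (SE, adjusted p = 0.000511), and by 3.65 (adjusted p = 1.4e-08) and 3.43 (adjusted p = 8.7e-09) without MCF10A siNT replicate 8. With each library left out in turn its smallest differences were 2.53 and 2.31 (adjusted p up to 0.00474 and 0.00322). CHAC1 differed by 4.28 ± 0.83 (SE, adjusted p = 0.00237) and 3.30 ± 0.83 (SE, adjusted p = 0.00578).

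DDIT3 was not lower in MCF10A cells, but its response still differed between the lines, by 1.86 ± 0.39 (SE, adjusted p = 0.00189) with miR-28 and 1.62 ± 0.39 (SE, adjusted p = 0.00233) with miR-708. SESN2 differed by 1.36 ± 0.23 (SE, adjusted p = 0.000449) and 1.38 ± 0.23 (SE, adjusted p = 0.000116), and DDIT4 by 1.18 ± 0.24 (SE, adjusted p = 0.003) and 0.95 ± 0.24 (SE, adjusted p = 0.00587). CEBPB differed with miR-708 (0.65 ± 0.24 SE, adjusted p = 0.0342), but 5 single libraries (hTERT RPE-1 siNT replicate 3 and miR-708 replicate 2, MCF10A siNT replicates 8 and 9 and miR-708 replicate 7) were each enough to lose that call when left out, with adjusted p up to 0.0982. PPP1R15A gave no call, with differences of -0.046 (95% interval -0.46 to 0.36) and -0.01 (-0.42 to 0.40), the narrowest of the members with no call. For NUPR1 the intervals were wider, -0.12 to 1.05 with miR-28 and -0.75 to 0.42 with miR-708. Without MCF10A siNT replicate 8 the NUPR1 difference with miR-28 was called (0.75, adjusted p = 0.0342). Called in both lines with opposite sign, lower in MCF10A and higher in hTERT RPE-1 cells, were 5 members with miR-28 (ATF4, TRIB3, ASNS, CHAC1 and DDIT4) and 3 with miR-708 (ATF4, TRIB3 and ASNS), the 5 being 4 without CHAC1. The difference between the mimics was itself not called between the lines for any member (0 by limma, 1 at an unadjusted p below 0.05, where 6.34% of all genes were called). Over all genes the pattern of opposite calls was held by 0.825% with miR-28, by 2.27% with miR-708 and by 0.465% with both.

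**Figure D3:**
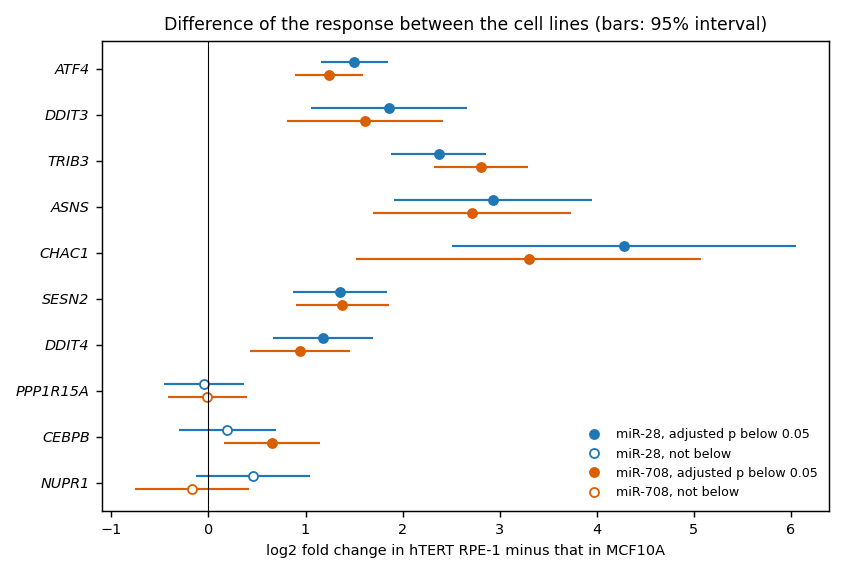
Difference of each member's log2 fold change between the lines, hTERT RPE-1 minus MCF10A, with miR-28 in blue and miR-708 in orange; bars are 95% intervals and filled points have an adjusted p below 0.05. Points of PPP1R15A sit close to 0, whereas those of ATF4, DDIT3, TRIB3, ASNS, CHAC1, SESN2 and DDIT4 lie right of it.

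In siNT libraries the lines started from different levels. The tables of the lines were scaled apart, so levels are set side by side without a test: ATF4 was at 12017 ± 1700.2 scaled reads (mean ± SD, n = 3) in MCF10A and 6858 ± 885 in hTERT RPE-1 cells. TRIB3 was at 1642 ± 469 and 265 ± 17.3, and ASNS at 3721 ± 2269 and 698 ± 139. After either mimic the MCF10A levels of TRIB3 (378.05 to 456) and ASNS (515 to 831) lay in the range of the hTERT RPE-1 libraries of all groups (247 to 533 and 545 to 1308), apart from 1 ASNS library at 515. DDIT3 was near the same level in siNT libraries of both lines, 173 ± 36.9 and 185 ± 20.2.

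The mimics were also set against each other, at the same dose and time. In hTERT RPE-1 cells 5 members differed, 3 higher and 2 lower with miR-708, where 21.2% of all genes did, 9.88% higher and 11.4% lower. DDIT3 (0.91 ± 0.23 SE, adjusted p = 0.0208), PPP1R15A (0.58 ± 0.11 SE, adjusted p = 0.00547) and CEBPB (0.69 ± 0.15 SE, adjusted p = 0.0116) were higher with miR-708 than with miR-28. CHAC1 (-0.92 ± 0.27 SE, adjusted p = 0.0344) and NUPR1 (-0.68 ± 0.19 SE, adjusted p = 0.0284) were lower. The count was 2, with PPP1R15A and CEBPB left, without miR-28 replicate 3, miR-708 replicate 1 or miR-708 replicate 3. The DDIT3 call was also lost without miR-708 replicate 2, that of CHAC1 without miR-28 replicate 1, and that of NUPR1 without miR-28 replicate 2 or without the trend. Under library size scaling 5 members were higher and 0 lower, with TRIB3 and SESN2 now called and CHAC1 and NUPR1 no longer called (adjusted p = 0.0691 and 0.099). Of the other members, TRIB3 was at 0.36 ± 0.14 (SE, adjusted p = 0.096) and ASNS at -0.36 ± 0.13 (SE, adjusted p = 0.0793).

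In MCF10A cells 0 members differed between the mimics by limma, where 1.55% of all genes did, and 2 had an unadjusted p below 0.05. Those were DDIT3, at 1.15 ± 0.31 (SE, adjusted p = 0.109) with all miR-708 libraries above all miR-28 libraries, and PPP1R15A, at 0.55 ± 0.16 (SE, adjusted p = 0.146). DDIT3 was called when miR-708 replicate 7 was left out (1.40, adjusted p = 0.0485), and also with the replicate number as a block. For the genes that fell with both mimics the intervals of the difference, miR-708 minus miR-28, were -0.088 to 0.42 for ATF4, -0.48 to 0.33 for TRIB3, -1.14 to 0.85 for ASNS and -0.30 to 0.15 for DDIT4.

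Motifs near the members were read from RefSeq promoters (GRCh38.p14, 250 bases before to 50 after each start). Promoters were found for 9 members, 15 windows in all, with NUPR1 unmatched. The core of the C/EBP-ATF response element, at which ATF4 acts with a C/EBP partner, was searched for on both strands as TGATGNAA. It was found in 2 of the 15 windows, 1 of ASNS and 1 of CHAC1, and in 3.62% of 35116 promoters. The cAMP response element TGACGTCA, to which ATF family factors can bind and which does not overlap that search, was in 1 of the 15 windows, that of PPP1R15A, and in 1.85% of promoters. The windows are printed because they let a reader see these elements, each with the motif in capitals and 8 bases on either side, on the strand on which the motif reads 5′ to 3′.
ASNS, chr7:97872461-97872484, minus strand, motif 68 to 61 bases before the start: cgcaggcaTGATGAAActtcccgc
CHAC1, chr15:40953254-40953277, minus strand, motif 209 to 202 bases before the start: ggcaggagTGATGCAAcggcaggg
PPP1R15A, chr19:48872355-48872378, plus strand, motif 58 to 51 bases before the start: tctcttcgTGACGTCAgcacgccg

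A match is a description of these letters only, and the lack of one says only that they are not in these windows. TRIB3, ATF4 and DDIT4, which like ASNS and CHAC1 fell in MCF10A cells, had no match.

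Matches to the seed were sought in the 3′ UTRs of the canonical GENCODE 44 transcripts (hg38). The letters GCTCCT, which pair with bases 2 to 7 of either mimic, were present in 3 members, SESN2, DDIT4 and NUPR1, and in 32.8% of 19161 UTRs. The longer match AGCTCCT was present in 1 member and 14.1% of UTRs, and GCTCCTA in 1 member and 6.21% of UTRs. The member is NUPR1 in both cases, with 3 sites, one of them matched over bases 2 to 8 and followed by A, in exon 3 of 3 of a transcript whose 3′ UTR is 4975 bases long. Canonical UTRs of ATF4, DDIT3, TRIB3, ASNS, CHAC1, PPP1R15A and CEBPB hold no such letters, which holds for 4 of the 5 members that fell with both mimics in MCF10A cells. The DDIT4 and NUPR1 sites are shown as the one site of a gene that fell in MCF10A cells and the longest match, with GCTCCT in capitals.
DDIT4, chr10:72275556-72275581, plus strand, exon 3 of 3: agaggcacgtGCTCCTcagagcagcc
NUPR1, chr16:28532969-28532994, minus strand, exon 3 of 3: tgtgtttggaGCTCCTattctgtgag

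NUPR1, which holds these matches, was not called lower with either mimic in either line. In hTERT RPE-1 cells DDIT4 was called higher with miR-28 (0.65, adjusted p = 0.0325). SESN2, which also holds GCTCCT, was called higher there with both mimics (1.58 and 1.79). Binding at these sites was not tested.

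The rest of the pathway was described from 9 lists by role, with 108 genes tested in MCF10A and 107 in hTERT RPE-1 cells besides the members. In MCF10A cells 60 were called with miR-28, 5 higher and 55 lower, and 61 with miR-708, 8 higher and 53 lower. For hTERT RPE-1 cells 60 were called with miR-28, 27 higher and 33 lower, and 67 with miR-708, 30 higher and 37 lower. Of all genes in MCF10A cells, 10.7% rose and 12% fell with miR-28, and 15.5% rose and 17.3% fell with miR-708. For hTERT RPE-1 cells these shares were 23.3% and 23.5% with miR-28, and 30.9% and 31.2% with miR-708. The same shares stand against the counts of each list below.

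**Figure D4:**
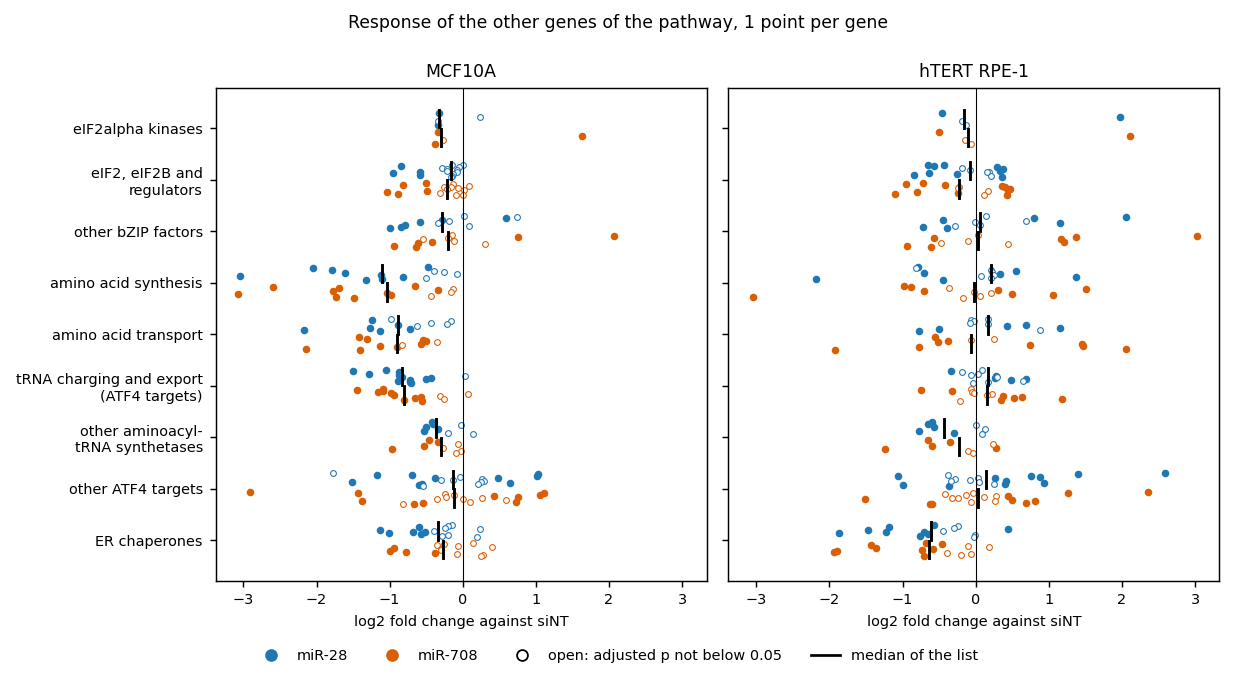
Log2 fold change against siNT of the other genes of the pathway, by list, in MCF10A (left) and hTERT RPE-1 cells (right), 1 point per gene, with miR-28 in blue and miR-708 in orange; open points have an adjusted p not below 0.05 and black bars are medians of a list. With miR-28 the medians of amino acid synthesis and of tRNA charging and export genes linked to ATF4 are -1.11 and -0.83 in MCF10A cells, and for hTERT RPE-1 cells they are 0.21 and 0.17.

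Upstream, the 4 eIF2alpha kinases differed among themselves. EIF2AK2 (PKR), which senses double-stranded RNA and is itself induced by interferon, rose with miR-708 in MCF10A cells (1.63, adjusted p = 1.36e-05) and was at 0.24 (adjusted p = 0.212) with miR-28, and it rose with both in hTERT RPE-1 cells, by 1.97 (adjusted p = 0.000711) and 2.11 (adjusted p = 0.000232). EIF2AK1 (HRI), the heme-regulated kinase, was lower in all 4 comparisons, from -0.33 in MCF10A with miR-28 to -0.50 in hTERT RPE-1 cells with miR-708. EIF2AK4 (GCN2), which senses uncharged tRNA, fell in MCF10A cells, at -0.34 (adjusted p = 0.0207) and -0.38 (adjusted p = 0.00717). In MCF10A cells the EIF2AK1 call with miR-28 was lost under both other scalings, without the trend, and without any 1 of the siNT libraries or miR-28 replicate 7 or 8 (adjusted p up to 0.0971). Its call with miR-708 was lost under library size scaling and without siNT replicate 7 or 8 or miR-708 replicate 8 or 9 (up to 0.111), and that of EIF2AK4 with miR-28 under library size scaling and without siNT replicate 7 or 9 or miR-28 replicate 7 (up to 0.072). The EIF2AK1 call with miR-708 in hTERT RPE-1 cells was lost under library size scaling (0.0741). EIF2AK3 (PERK), the kinase of the endoplasmic reticulum, was called in none of the 4, with changes of -0.35 and -0.27 in MCF10A cells, and for hTERT RPE-1 cells -0.19 and -0.15. With the replicate number as a block its change with miR-28 in MCF10A cells had an adjusted p of 0.0386. Phosphorylation was not measured.

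Among subunits and regulators of eIF2, 4 of 15 genes fell with miR-28 and 5 with miR-708 in MCF10A cells, and the others did not pass the test. EIF2S3, the gamma subunit of eIF2, fell, at -0.96 (adjusted p = 0.000839) and -1.04 (adjusted p = 0.000212), EIF2A, an initiator tRNA binding factor, at -0.84 (adjusted p = 0.000254) and -0.81 (adjusted p = 9.9e-05), and IMPACT, an inhibitor of GCN2, at -0.58 (adjusted p = 0.00629) and -0.89 (adjusted p = 0.000319). Of the same 15 in hTERT RPE-1 cells, 6 fell and 4 rose with miR-28, and 6 fell and 5 rose with miR-708. EIF2S3 fell there too, at -0.63 and -0.81, as did IMPACT, at -0.84 and -1.11, and DNAJC3, a PERK inhibitor, at -0.65 and -0.96.

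Of 13 genes of amino acid synthesis, 9 fell with miR-28 and 10 with miR-708 in MCF10A cells and the others did not pass, with list medians of -1.11 and -1.04. PHGDH, the first enzyme of serine synthesis, fell, at -3.05 (adjusted p = 0.00081) and -3.08 (adjusted p = 0.00032), and was at -3.68 (adjusted p = 2.66e-05) and -3.71 (adjusted p = 5.71e-06) without siNT replicate 8. With each library left out in turn its weakest changes were -2.73 and -2.75 (adjusted p up to 0.00489 and 0.00227). SHMT2, which turns serine to glycine in mitochondria, fell, at -1.32 (adjusted p = 0.000122) and -1.49 (adjusted p = 1.19e-05), and PYCR1, of proline synthesis, at -1.11 (adjusted p = 0.00204) and -1.73 (adjusted p = 7.73e-05). Of these 13 genes in hTERT RPE-1 cells, 3 rose and 4 fell with miR-28, and 4 rose and 4 fell with miR-708. PSAT1, of serine synthesis, rose by 1.38 (adjusted p = 1.94e-05) and 1.06 (adjusted p = 4.58e-05), while PYCR1 fell, at -2.18 (adjusted p = 8.78e-07) and -3.05 (adjusted p = 6.25e-08) and ALDH18A1, also of proline synthesis, fell, at -0.78 (adjusted p = 0.000288) and -0.98 (adjusted p = 2.81e-05).

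Of 11 amino acid transporters, 6 fell with miR-28 and 9 with miR-708 in MCF10A cells, and the others did not pass. SLC7A11, the cystine transporter, fell, at -2.17 (adjusted p = 0.00348) and -2.14 (adjusted p = 0.00197), and was at -2.74 (adjusted p = 0.000227) and -2.72 (adjusted p = 7.68e-05) without siNT replicate 8. With each library left out in turn its weakest changes were -1.77 and -1.74 (adjusted p up to 0.0182 and 0.0106). SLC1A5, a glutamine transporter, fell, at -1.24 (adjusted p = 0.00047) and -1.31 (adjusted p = 0.000131), and SLC7A1, which carries arginine and lysine, at -0.72 (adjusted p = 0.0106) and -0.91 (adjusted p = 0.00187). The count with miR-708 was 5 without siNT replicate 7 or without siNT replicate 9. Of the 11 in hTERT RPE-1 cells, 3 rose and 2 fell with miR-28, and 4 rose and 5 fell with miR-708. The 5 calls with miR-28 there were 3 when siNT replicate 1, 2 or 3 or miR-28 replicate 2 was left out. SLC3A2, the heavy chain shared by several transporters, rose by 0.69 (adjusted p = 0.0147) and 1.45 (adjusted p = 9.79e-05), whereas its partner SLC7A5 fell, at -0.78 (adjusted p = 0.0251) and -1.92 (adjusted p = 7e-05) and SLC7A1 fell, at -0.50 (adjusted p = 0.0115) and -0.77 (adjusted p = 0.000607). With miR-28 the SLC3A2 call was lost without siNT replicate 3 (adjusted p = 0.0549), and the SLC7A5 call without the trend and without siNT replicate 1 or 2 or miR-28 replicate 1 (up to 0.101).

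Cytosolic aminoacyl-tRNA synthetases, which charge tRNAs, were split into those known as ATF4 targets and those not. The first list also holds XPOT, which is no synthetase but exports tRNA from the nucleus, and all its counts and medians include that gene. Of its 13 genes, 12 fell with miR-28 and 10 with miR-708 in MCF10A cells and the others did not pass, with medians of -0.83 and -0.80. CARS1 fell, at -1.50 (adjusted p = 0.00053) and -1.45 (adjusted p = 0.000254), AARS1 at -1.05 (adjusted p = 0.00124) and -1.09 (adjusted p = 0.000461), and IARS1 at -0.87 (adjusted p = 0.00193) and -0.99 (adjusted p = 0.000438). Of the 13 in hTERT RPE-1 cells, 4 rose and 1 fell with miR-28, and 5 rose and 2 fell with miR-708. The 5 calls with miR-28 there were 2 without siNT replicate 1 and 3 without siNT replicate 2. SARS1 rose by 0.68 (adjusted p = 0.000111) and 0.63 (adjusted p = 8.79e-05) and TARS1 by 0.48 (adjusted p = 0.00112) and 0.52 (adjusted p = 0.000353), while CARS1 fell, at -0.34 and -0.74, the former lost under library size scaling and without siNT replicate 1 or 2 or miR-28 replicate 1 (adjusted p up to 0.0988). In the second list, of 8 genes, 5 fell with miR-28 and 4 with miR-708 in MCF10A cells, and 5 and 4 fell in hTERT RPE-1 cells, where 1 rose with miR-708. Of these, the 5 MCF10A calls with miR-28 were 3 without siNT replicate 8, and the 5 hTERT RPE-1 calls with miR-708 were 3 without siNT replicate 2. QARS1 and HARS1 were lower in both lines, QARS1 at -0.53 and -0.97 in MCF10A and at -0.78 and -1.24 in hTERT RPE-1 cells.

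The difference between the lines was tested gene by gene in these lists too. With miR-28 it passed the threshold for 12 of the 13 genes of tRNA charging and export linked to ATF4, XPOT among them, all higher in hTERT RPE-1 cells, and for 1 of the 8 other synthetases. With miR-708 these counts were 11 and 1, the latter being 2 without hTERT RPE-1 miR-708 replicate 2. Of 13 amino acid synthesis genes 10 differed with miR-28 (9 higher in hTERT RPE-1 cells) and 9 with miR-708 (8 higher), and of 11 transporters 5 and 6 differed, all higher. The count of 10 was 6 without MCF10A siNT replicate 7 or without siNT replicate 9. Of all genes tested in both lines, 23.4% differed with miR-28 and 39.8% with miR-708. Those higher in hTERT RPE-1 cells were 12.1% and 20.2%.

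Among other bZIP factors, ATF3, a stress factor downstream of ATF4, rose in hTERT RPE-1 cells by 2.05 (adjusted p = 4.24e-05) and 3.03 (adjusted p = 1.36e-06), and CEBPG, which pairs with ATF4, rose there by 1.15 (adjusted p = 2.87e-05) and 1.21 (adjusted p = 8.86e-06). ATF3 was at 0.75 and 2.07 in MCF10A cells, and CEBPG at -0.33 and -0.43. In MCF10A cells ATF5, which like ATF4 is under translational control, rose by 0.59 (adjusted p = 0.00706) and 0.75 (adjusted p = 0.00106), and XBP1, of the unfolded protein response, fell, at -0.999 (adjusted p = 0.0014) and -0.64 (adjusted p = 0.0078). ATF5 was at 0.80 and 1.38 in hTERT RPE-1 cells, and XBP1 at -0.39 and -0.62. NFE2L2 (NRF2), of the oxidant response, fell in both lines, at -0.84 and -0.94 in MCF10A and at -0.71 and -0.94 in hTERT RPE-1 cells. Over the list of 11 genes tested in each line, 1 rose and 5 fell with miR-28 and 2 rose and 4 fell with miR-708 in MCF10A cells, and 3 rose and 3 fell with miR-28 and 4 rose and 3 fell with miR-708 in hTERT RPE-1 cells.

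Other known ATF4 targets did not share a direction in either line. Of 19 in MCF10A cells 4 rose and 6 fell with miR-28 and 5 rose and 5 fell with miR-708, and of 18 in hTERT RPE-1 cells 8 rose and 3 fell, and 6 rose and 3 fell. The 10 MCF10A calls with miR-28 were 6 without miR-28 replicate 8. STC2, a secreted glycoprotein, fell in MCF10A cells, at -1.51 (adjusted p = 0.00143) and -1.38 (adjusted p = 0.00111), EIF4EBP1, a translation repressor, at -1.18 (adjusted p = 0.00249) and -1.44 (adjusted p = 0.000381), and VEGFA at -0.59 (adjusted p = 0.00159) and -0.66 (adjusted p = 0.000389). The hTERT RPE-1 changes were 0.042 and 0.26 for STC2, -0.37 and -0.039 for EIF4EBP1, and -1.0003 and -0.59 for VEGFA. BBC3 (PUMA) is a cell death gene that p53 also induces. In hTERT RPE-1 cells BBC3 rose by 1.40 (adjusted p = 5.17e-05) and 1.26 (adjusted p = 4.59e-05). The death receptor TNFRSF10B rose there by 0.94 (adjusted p = 0.000139) and 0.82 (adjusted p = 0.00016). SQSTM1, the autophagy receptor p62, rose there by 0.42 (adjusted p = 0.0118) and 0.50 (adjusted p = 0.0029). The MCF10A changes were 1.02 and 1.11 for BBC3, 0.65 and 0.73 for TNFRSF10B, and 0.25 and 0.59 for SQSTM1. The difference between the lines missed the threshold for BBC3, TNFRSF10B, SQSTM1 and VEGFA (adjusted p from 0.216 to 0.826). It passed for STC2 and EIF4EBP1.

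Chaperones of the endoplasmic reticulum are induced by the ATF6 and XBP1 arms of the unfolded protein response. Of 14 such genes 6 fell with miR-28 and 4 with miR-708 in MCF10A cells, and in hTERT RPE-1 cells 8 fell and 1 rose with miR-28 and 9 fell with miR-708. MANF fell, at -1.01 (adjusted p = 0.0028) and -0.78 (adjusted p = 0.00582) in MCF10A and at -1.87 (adjusted p = 1.67e-06) and -1.93 (adjusted p = 4.86e-07) in hTERT RPE-1 cells. HYOU1 fell, at -0.69 and -1.001 and at -1.23 and -1.90, and EDEM1 at -1.13 and -0.94 and at -1.48 and -1.36. The 4 MCF10A calls with miR-708 became 8 without miR-708 replicate 7. Where the response differed between the lines, it was lower in hTERT RPE-1 cells, for 3 of 14 genes with miR-28 (5 without hTERT RPE-1 miR-28 replicate 2) and 5 with miR-708, where 23.4% and 39.8% of all genes differed.

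The genes most like ATF4, DDIT3 and ASNS in pattern were found by Pearson's r of log2 values centred within each line, over 18 libraries and 10225 genes of at least 100 mean scaled reads that are no members. The points share groups and size factors, so r is given as a description. ATF4 was most like MTHFD2 (r = 0.926), MARS1 (0.925) and PHGDH (0.900), and ASNS most like MARS1 (0.966), MTHFD2 (0.934) and PHGDH (0.921). MTHFD2 is an enzyme of mitochondrial folate metabolism and MARS1 the methionyl-tRNA synthetase. DDIT3 was most like PSME2 (0.974), a proteasome activator subunit, IFITM3 (0.970), an interferon-induced membrane protein, and WHAMM (0.969), an actin nucleation factor. Between ATF4 and DDIT3 themselves r was 0.135 over the 18 libraries, -0.372 over the 9 of MCF10A and 0.778 over the 9 of hTERT RPE-1 cells.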

How the data were processed

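PolyA+ RNA was sequenced from 18 libraries, 9 in each cell line. Per the labels and the study's methods, the authors trimmed adapters, aligned reads to hg38 with HISAT2 2.1.0, and estimated reads per gene in Partek Flow from RefSeq transcripts by expectation maximisation. The deposited values are a signal, the estimated reads that the authors divided by a DESeq2 size factor per library, apart for each line. Such scaling assumes that most genes do not change, and it holds no measure of RNA per cell. Deposited columns of the authors' own comparisons (fold changes, p-values and false discovery rates) were not used.

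The values were tested with limma 3.58.1 in R 4.3.3 on log2(value + 1), with a trend over the mean, for genes at 10 or more in at least 3 of 9 libraries (14726 genes in MCF10A and 14527 in hTERT RPE-1 cells), with 3 group means per line, two-sided tests and Benjamini-Hochberg adjustment over all genes tested. Log2 fold changes are on the log2(value + 1) scale, which understates the change of low genes. The response was compared between lines as the difference of log2 fold changes, with Welch-Satterthwaite degrees of freedom, over 13339 genes. These are not counts, so no count model was run: 82.5% to 86.8% of low values were whole multiples (tolerance 0.02 reads) of the value of 1 read, from which the depth was estimated. The fits were first tested on simulated data, in which 100 genes a line changed by 1 and 100 by 0.5, all in the miR-708 group. Far fewer genes changed there than were called against siNT in the real data, and the simulated spread was set from a gene's mean level only. Within a line the fits recovered 99% of true log2 changes of 1 and 38% to 39% of those of 0.5. Between the lines they recovered 89.5% and 15.7%. A gene that was not called may thus still have changed by about 0.5.

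The members and lists were chosen with earlier results of these data known. All members, RPS28 and the 4 eIF2alpha kinases are named, and from each other list the 3 genes per line with the lowest adjusted p over both mimics among those called in 1 direction with both and with a mean of at least 100; 1 gene so chosen is not reported here. The labels call replicates biological and do not say that a number marks a shared day. Whether same-numbered libraries deviated together was checked by the correlation of their deviations from group means: r was 0.111 to 0.302 for the mimics against siNT in MCF10A cells and 0.134 to 0.278 for miR-708 against miR-28 in hTERT RPE-1 cells, and at least 1 pair was below 0.1 in each other comparison. Every pair thus exceeded 0.1 in the former comparisons only. A number that pairs samples in 1 comparison of a line would pair them in all, so this check does not settle the pairing. The tests given are without a block, since the study's methods name none, and it is stated beside a result where a block changes its call. For the mimics against siNT in MCF10A cells the block took the genes called from 3347 to 4408 and from 4835 to 5818. Alternatives were pseudocounts of 0.5 and 5, no filter, 2 other scalings, the replicate number as a block, no trend, a 2-fold minimum and each library left out. Leaving out siNT replicate 8 with no filter, and the alternatives for genes that are no members, were added after seeing the data. Promoter and UTR letters were searched with Python 3.11.15.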

Additional observations from a re-analysis of the deposited data

Results flagged for a closer look

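Flagged because the response differed between the cell lines by a test of the difference itself were 15 results, each given as the log2 fold change in hTERT RPE-1 minus that in MCF10A cells with limma's adjusted p. With miR-28 these were ATF4 (1.50), DDIT3 (1.86), TRIB3 (2.37), ASNS (2.93), CHAC1 (4.28), SESN2 (1.36) and DDIT4 (1.18), with adjusted p from 1.07e-06 for TRIB3 to 0.003 for DDIT4. With miR-708 they were ATF4 (1.24), DDIT3 (1.62), TRIB3 (2.81), ASNS (2.71), CHAC1 (3.30), SESN2 (1.38), DDIT4 (0.95) and CEBPB (0.65), with adjusted p from 2.72e-08 for TRIB3 to 0.0342 for CEBPB. Both mimics share the siNT libraries of a line, so the 2 sets are not independent. Each set includes CHAC1, which passed the filter in MCF10A cells only through the siNT group and so had to differ there. The lines differ in tissue of origin, in the level of these genes with siNT and in the tables that hold them, and what sets the difference was not tested.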

How the results depend on the processing

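The lower calls of ATF4, TRIB3, ASNS and DDIT4 with both mimics and the higher calls of DDIT3 and PPP1R15A with miR-708 in MCF10A cells were kept under every alternative that left the size of change free. In the between-line test the 7 members called with miR-28 kept their calls, as did the same 7 with miR-708, whereas CEBPB lost its call in 6 of 25 alternatives. NUPR1 with miR-28 gained a call in 1 of 25, without MCF10A siNT replicate 8. CHAC1 in MCF10A cells could not be tested when a siNT library was left out, unless the filter was dropped too. A minimum change of 2-fold left 4 members called with miR-708 in MCF10A cells, 2 with either mimic in hTERT RPE-1 cells and 0 between the mimics there, with 20 and 25 pathway genes left for MCF10A cells, and for hTERT RPE-1 cells 14 and 22. With the replicate number as a block, 1 member (DDIT3) differed between the mimics in MCF10A cells, and all genes called there went from 228 to 643. The r of same-numbered libraries in that comparison was 0.025 to 0.177. The block also called PPP1R15A with miR-28 (adjusted p = 0.0424), SESN2 with miR-708 (0.0432) and EIF2AK3 with miR-28 (0.0386) in MCF10A cells and NUPR1 with miR-28 in hTERT RPE-1 cells (0.0126), and changed no other call of a named gene.

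Library size scaling turned the sign of values that had not been called: PPP1R15A (0.17) and NUPR1 (0.011) between the lines with miR-708, CEBPB (0.0094) and NUPR1 (0.055, and 0.013 with upper quartile scaling) with miR-28 and NUPR1 (0.034) with miR-708 in MCF10A cells, and CHAC1 (0.20), NUPR1 (0.045), EIF2AK3 (0.17) and EIF2AK4 (0.25, adjusted p = 0.035) with miR-708 in hTERT RPE-1 cells. Between the mimics in hTERT RPE-1 cells it did so for ATF4 (0.14), and the share of higher genes among all called went from 46.5% to 84.8%.

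Leaving out each library in turn gave 0 to 1 members between the mimics in MCF10A cells and 2 to 6 in hTERT RPE-1 cells. It turned the sign only of values that were not called. Between the lines these ran from -0.25 to 0.059 for PPP1R15A and from -0.020 to 0.36 for CEBPB with miR-28, and from -0.067 to 0.069 for PPP1R15A and from -0.34 to 0.12 for NUPR1 with miR-708. In MCF10A cells they ran from -0.26 to 0.11 for CEBPB and from -0.34 to 0.10 for NUPR1 with miR-28, from -0.39 to 0.047 for NUPR1 with miR-708, and between the mimics from -0.32 to 0.026 for ASNS, from -0.16 to 0.33 for CHAC1 and from -0.15 to 0.070 for NUPR1. In hTERT RPE-1 cells they ran from -0.073 to 0.21 for CEBPB with miR-28 and from -0.30 to 0.17 for CHAC1 with miR-708. At the depth of these libraries CHAC1 in MCF10A mimic libraries lies within a few reads of the floor, so the size of its fall is set by the pseudocount.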
